A study of Homo sapiens with 6 samples.

Results

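The genes described here are the matrix metalloproteinases (MMP), the ADAM and ADAMTS metalloproteinases and their tissue inhibitors (TIMP), chosen by gene symbol alone: MMP, ADAM or ADAMTS followed by a number, and TIMP1 to TIMP4. The rule found 67 of the 61859 genes in the expression table, namely 22 MMP, 22 ADAM, 19 ADAMTS and 4 TIMP genes. Of these, 33 had a mean normalised read count of at least 10 over the 6 libraries, 16 had reads but a lower mean, and 18 had no read in any library. The cells were OSC19SSZR, an oral squamous cell carcinoma line resistant to sulfasalazine, grown in DMEM with 10% fetal bovine serum. They received either a control siRNA (3 libraries) or a siRNA against FOXA1 (3 libraries) with Lipofectamine RNAiMAX and were harvested after 48 h, and both groups therefore share the resistant background and the transfection. All libraries come from this 1 line, and cells that are not resistant were not analysed here. The labels give neither the siRNA sequences nor state whether replicates were separate cultures, so the p-values measure the spread between these libraries, which may be technical.

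MMPs are zinc-dependent endopeptidases that cleave collagens, laminins and other matrix proteins. They are made as inactive precursors, and some are anchored in the plasma membrane while most are secreted. ADAMs are membrane-anchored relatives, several of which release the outer part of growth factors and receptors from the cell surface ("shedding"), and ADAMTS enzymes are secreted forms with thrombospondin repeats that cut proteoglycans, procollagens or von Willebrand factor. TIMPs bind the catalytic site of these enzymes and block it. FOXA1 is a pioneer transcription factor of the forkhead family, active in many epithelia.

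Each library held 16510125 to 25732569 reads. FOXA1 itself, on GRCh38 chr14:37589984-37596059 (minus strand), had normalised counts of 1477, 1378 and 1459 in the controls. After its siRNA they were 247, 192 and 189, a mean of 14.5% of the control mean. Its groups did not overlap (log2 fold change -2.79 ± 0.09 SE, limma adjusted p = 3.32e-18; an exact two-sided permutation test gave p = 0.1, the smallest that 3 against 3 libraries allow). All 6 squamous markers examined were above a mean of 10, with summed levels of 48731 to 50042 in control and 49319 to 52351 in FOXA1 siRNA libraries, although KRT14 was low, at means of 30.0 and 47.6. Within that sum KRT17 went from a mean of 5826 to 11743, KRT5 from 31639 to 27947 and TP63 from 4917 to 3734. Fibroblast markers summed to 148 to 166 and 92.5 to 141 with DCN, LUM and PDGFRA at 0 reads, and COL1A1 was the only 1 of the 8 above 10. Leukocyte markers (2 of 5 above 10) summed to 119 to 131 and 90.0 to 110, and endothelial markers (1 of 4, CDH5) to 542 to 571 and 279 to 302 with KDR at 0 reads. The part of these marker levels in the results was not tested.

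Among the 33 members with a mean of at least 10, 7 were higher, 14 were lower and 12 did not pass an adjusted p of 0.05 after FOXA1 siRNA (limma on log2 normalised counts). Over all 18460 genes tested the same way, 26.8% were higher and 25.0% lower, 51.8% in all, against 21.2% and 42.4% of the members. Changes of at least 1.5-fold past the threshold were seen in 3 members upward and 11 downward, and in 7.16% and 12.0% of all genes. The 14 and the 11 lower members both include MMP1 and TIMP4, which reached a mean of at least 10 through their control groups. The members' median log2 fold change was -0.26 and that of all tested genes was 0.0039. The groups did not overlap in 6 members that were higher and 15 that were lower, where 29.5% and 28.1% of all genes did the same, 57.6% in all. When libraries were scaled to equal totals, the median log2 fold change of all genes moved from 0.0039 to -0.093. The members then split into 5 higher and 17 lower, and all 18460 genes into 3594 higher and 5967 lower. In bulk RNA, fewer cells of a type and less RNA per cell cannot be told apart.

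**Figure D1:**
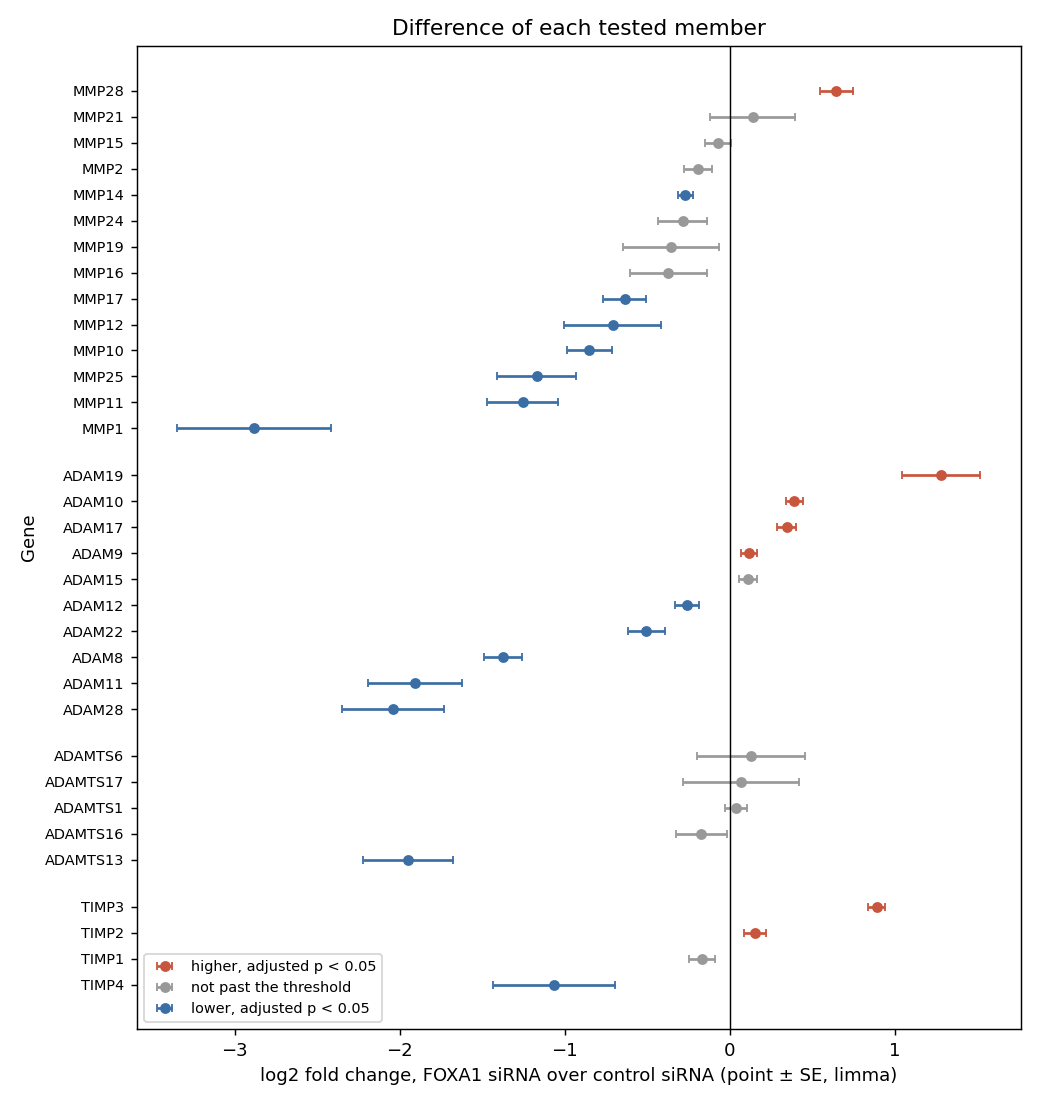
Log2 fold change (FOXA1 siRNA minus control siRNA, log2 of normalised count plus 1) of the 33 members with a mean of at least 10, with standard errors from limma, grouped by family and coloured by call. MMP1 lies farthest to the lower side at -2.88 and ADAM19 farthest to the higher side at 1.28.

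Of the 14 MMP genes tested, 7 fell and 1 rose (25.0% and 26.8% of all genes tested did), with a median log2 fold change of -0.36. The most abundant was MMP14 (MT1-MMP, chr14:22836557-22849027, plus strand), a membrane-anchored collagenase that also activates pro-MMP2. Its normalised counts were 9547, 9316 and 9549 in control and 8092, 8001 and 7504 in FOXA1 siRNA libraries, so that every treated library lay below every control. The treated mean was 83.1% of the control mean (log2 fold change -0.27 ± 0.04 SE, limma adjusted p = 1.10e-05), a small change in a gene whose level stood at the 98.5th percentile of all tested genes. Divided by exon length, MMP14 fell from 2122 ± 30.0 to 1762 ± 70.8 normalised counts per kb (SD, n = 3) and made up 78.3% of the summed MMP level per kb in control and 78.1% in FOXA1 siRNA libraries. The summed MMP level per kb went from 2710 ± 49.9 to 2257 ± 88.9 (SD, n = 3), without overlap between groups.

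The other membrane-type enzymes were at lower levels, and 3 of the 6 membrane-type genes fell in all while none rose (25.0% and 26.8% of all genes tested). MMP17 (MT4-MMP, attached by a lipid anchor) had counts of 159.8, 157 and 156 in control and 95.4, 99.4 and 109 in FOXA1 siRNA libraries, with no overlap (log2 fold change -0.64 ± 0.13 SE, limma adjusted p = 0.000174). MMP25 (MT6-MMP, known from leukocytes) went from 58.0, 65.6 and 66.9 to 36.4, 30.4 and 19.0, again without overlap (-1.17 ± 0.24 SE, limma adjusted p = 0.000159). MMP25 shares 1454 of its 4126 exon bases with the antisense gene MMP25-AS1, whose mean was 132 in control and 62.7 in treated libraries, and whether the counting used strand is not given in the sources used here, so reads of the pair may not be separable. MMP15, MMP16 and MMP24 did not pass the threshold, with log2 fold changes of -0.07, -0.37 and -0.29 (limma adjusted p = 0.467, 0.187 and 0.105). MMP24 passed under equal totals (limma adjusted p = 0.0300) and without FOXA1 siRNA replicate 3 (0.0381), and all its alternatives gave 0.0300 to 0.495. It shares 799 of its 4414 exon bases with MMP24OS on the opposite strand, whose mean was 460 in control and 423 in treated libraries.

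Both stromelysin-type genes that were tested fell, where 25.0% of all genes tested did. MMP10 (stromelysin 2, chr11:102770503-102780628, minus strand), which cleaves proteoglycans and activates collagenases, had counts of 244, 202 and 201 in control libraries. With FOXA1 siRNA they were 141, 96.4 and 122, all below the lowest control (log2 fold change -0.85 ± 0.14 SE, limma adjusted p = 7.17e-06). MMP11 (stromelysin 3), activated inside the cell by furin, went from 63.7, 84.7 and 92.1 to 26.8, 31.1 and 41.5 without overlap (-1.26 ± 0.22 SE, limma adjusted p = 1.78e-05). MMP11 shares 218 exon bases with CHCHD10 on the opposite strand, whose mean moved the other way, from 1104 to 1834.

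The only collagenase tested, MMP1 (interstitial collagenase, chr11:102789920-102798160, minus strand), had the lowest log2 fold change of the members. Its counts were 28.5, 32.3 and 19.9 in control and 3.22, 4.55 and 1.19 in FOXA1 siRNA libraries. The change rests on 81 reads in all controls together against 10 in all treated libraries (log2 fold change -2.88 ± 0.47 SE, limma adjusted p = 7.58e-06), and MMP1 passed the level filter through its control group alone. It shares 150 of 1970 exon bases with WTAPP1 on the opposite strand, whose mean also went down, from 38.1 to 21.4. MMP12 (macrophage elastase) had counts of 23.8, 27.2 and 34.5 against 16.1, 16.7 and 17.8, which do not overlap. Its call was marginal (-0.71 ± 0.30 SE, limma adjusted p = 0.0460) and ended in 10 of 16 alternatives (adjusted p from 0.00960 to 0.185). Among these were DESeq2 on recovered reads, no filter, quantile normalisation, and 5 of the 6 fits that left out a library, all but that without control siRNA replicate 1 (0.0594 to 0.185 in those 5).

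MMP28 (epilysin, a secreted enzyme of skin and other epithelia) was the only MMP that rose. Its counts were 183.6, 191 and 192 in control and 314, 309 and 268 in FOXA1 siRNA libraries, with no overlap (log2 fold change 0.65 ± 0.10 SE, limma adjusted p = 4.67e-06). The gelatinase MMP2, which MMP14 activates, had counts of 406 ± 3.47 in control and 356 ± 21.3 in treated libraries (SD, n = 3). The groups did not overlap, yet the change missed the threshold (-0.19 ± 0.08 SE, limma adjusted p = 0.0527). It passed in 4 of 17 alternatives, with limma without FOXA1 siRNA replicate 2 (adjusted p = 0.0425), under equal totals (0.00464) and at a mean of at least 50 (0.0462). The remaining pass was with edgeR on recovered reads (adjusted p = 0.0444). All alternatives for MMP2 gave 0.00464 to 0.165. MMP19 and MMP21 had log2 fold changes of -0.36 and 0.14 (limma adjusted p = 0.320 and 0.683). MMP19 shares 814 of its 4672 exon bases with TMEM198B on the opposite strand, whose mean went from 187 to 102.

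**Figure D2:**
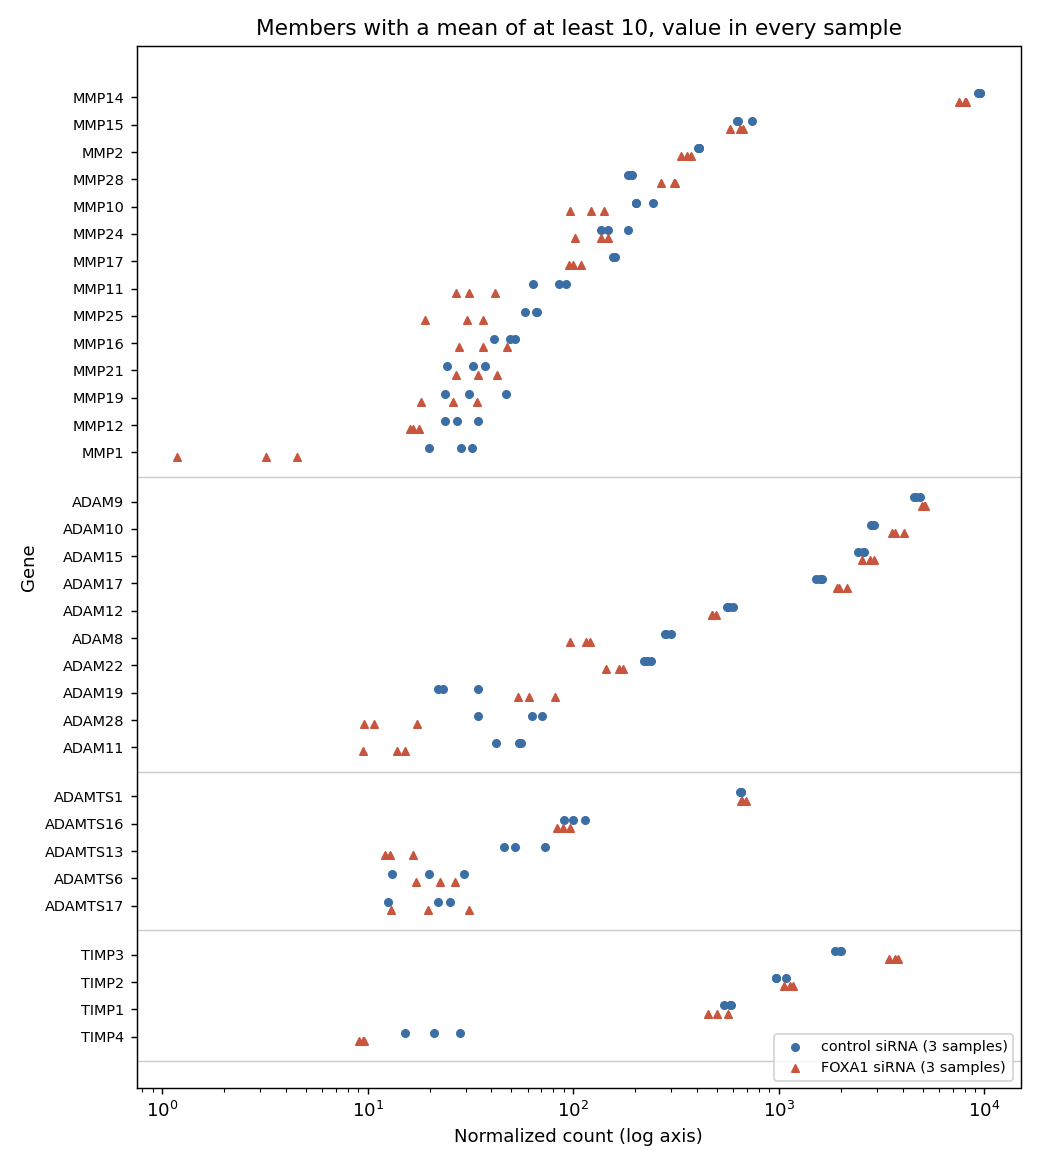
Normalised read count (log axis) of the 33 tested members in every library, 1 point per library, with control siRNA as circles and FOXA1 siRNA as triangles, grouped by family. Treated libraries lie below all controls for MMP14 and above all controls for TIMP3.

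A cluster of 9 MMP genes lies on the minus strand of chr11:102520508-102955734 in GRCh38. Only MMP10, MMP1 and MMP12 of this cluster were tested, and all 3 fell, where 25.0% of all genes tested did. As given above, MMP1 passed the level filter through its control group alone, and the MMP12 call ended in 10 of 16 alternatives. The others were near or at 0, and their reads, looked at after the values were seen because they lie in the cluster, were 7 against 5 for MMP3 (stromelysin 1), 2 against 4 for MMP7 (matrilysin) and 5 against 0 for MMP13 (collagenase 3), control against FOXA1 siRNA. MMP8, MMP20 and MMP27 had no read. Genes on either side did not share a direction. BIRC2, an apoptosis inhibitor at lower coordinates than the cluster, went from 500 to 365 (log2 fold change -0.45, limma adjusted p = 1.77e-05). On that same side YAP1 was slightly higher (0.12, limma adjusted p = 0.0480). At higher coordinates DCUN1D5 went from 821 to 1159 (0.49, limma adjusted p = 8.10e-07). There, PDGFD went from 743 to 437 (-0.77, limma adjusted p = 1.20e-09) and DYNC2H1 from 1023 to 834 (-0.30, limma adjusted p = 0.00133).

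**Figure D3:**
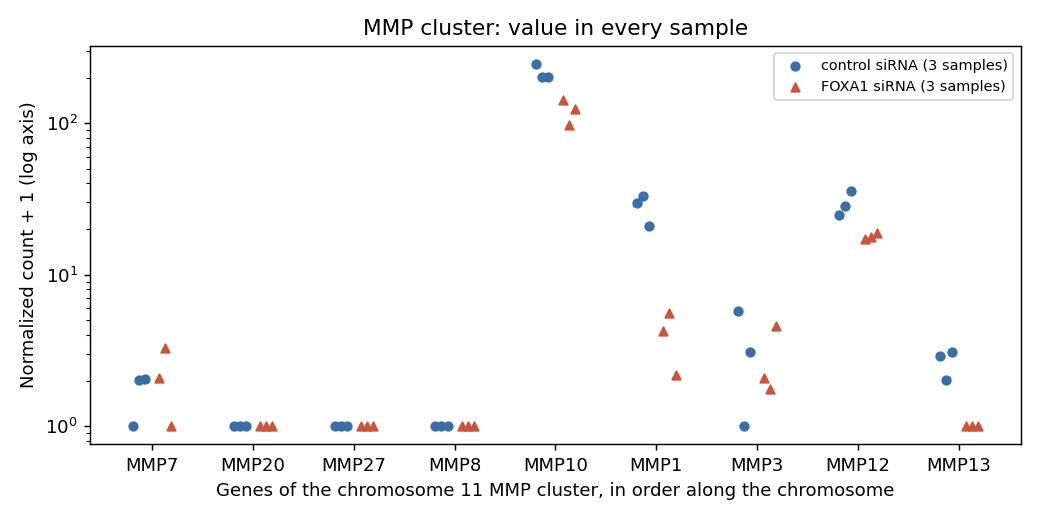
Normalised count plus 1 (log axis) of the 9 MMP genes of the chromosome 11 cluster in every library, in order along the chromosome. For MMP10, MMP1 and MMP12 the 3 FOXA1 siRNA libraries lie below the 3 controls, and the other 6 genes lie near or at 0 reads.

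The stretch just upstream of MMP10 is shown because it was the only tested member's promoter window to hold all 3 of the words searched. Promoter windows from 250 bases before to 50 after the start were taken from RefSeq (GRCh38.p14) and matched 38 member symbols, 19 of them tested. The words were TGTTTAC or TATTTAC (forkhead core), TGANTCA (AP-1 type) and TATAAA, each read on both strands. The forkhead words occurred in 5.97% of all 35116 windows and in 2 of the 19 tested members, MMP10 and ADAMTS13. The AP-1 word occurred in 7.71% of all windows and, among those members, in MMP10. TATAAA occurred in 11.5% of all windows and in MMP10 and MMP21 among them. The MMP10 sequence lies at chr11:102780629-102780878 (minus strand, GC 34.4%), with the words in capitals: the forkhead word in reverse complement 245 bases, the AP-1 word 67 bases and TATAAA 31 bases before the start. In ADAMTS13 the forkhead word lies 47 bases before the RefSeq start, on chr9:133422310-133422337 (plus strand). That start lies inside the gene as annotated by GENCODE (chr9:133414358-133459402). Exon bases of the gene fall within the window, so only the stretch around the word is shown. A match is a description of letters and not of binding.
MMP10: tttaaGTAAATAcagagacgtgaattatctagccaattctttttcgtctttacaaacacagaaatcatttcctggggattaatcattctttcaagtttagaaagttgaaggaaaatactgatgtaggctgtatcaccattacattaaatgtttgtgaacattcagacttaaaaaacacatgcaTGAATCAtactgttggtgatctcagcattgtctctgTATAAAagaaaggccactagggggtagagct
ADAMTS13: gcttccaagaGTAAACActgcctaatcg

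Of the 10 ADAM genes tested, 4 rose and 5 fell (26.8% and 25.0% of all genes tested did), and those that rose included the main shedding enzymes. ADAM10 (chr15:58588807-58749978, minus strand), which cleaves Notch receptors and cadherins, had counts of 2901, 2818 and 2848 in control and 3655, 3543 and 4064 in FOXA1 siRNA libraries. All treated libraries were above all controls (log2 fold change 0.39 ± 0.05 SE, limma adjusted p = 3.81e-07). ADAM17 (TACE, chr2:9488486-9556732, minus strand), the enzyme that releases TNF and most EGF receptor ligands, had counts of 1624, 1517 and 1582 in control and 1950, 1918 and 2137 in treated libraries. It rose to 127% of the control mean without overlap (0.35 ± 0.06 SE, limma adjusted p = 7.95e-06). ADAM17 shares 1323 of its 10750 exon bases with IAH1 on the opposite strand, whose mean was 600 in control and 702 in treated libraries.

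ADAM9, a shedding enzyme and integrin ligand, was the most abundant ADAM. Its counts were 4844, 4641 and 4541 in control and 5141, 4961 and 5105 in treated libraries, all treated above all controls, but the treated mean was only 108% of the control mean (log2 fold change 0.12 ± 0.05 SE, limma adjusted p = 0.0363). The call ended in 10 of 17 alternatives (adjusted p from 0.0276 to 0.749), among them the fits without FOXA1 siRNA replicate 1 and without control siRNA replicates 2 and 3 (0.0950 to 0.172), and quantile normalisation turned the sign (-0.05). ADAM15, which carries an integrin-binding RGD motif, did not pass (0.11 ± 0.05 SE, limma adjusted p = 0.0878). It passed without FOXA1 siRNA replicate 3 (adjusted p = 0.00473; all alternatives gave 0.00473 to 0.859).

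ADAM19 (meltrin beta), which sheds neuregulin, was low but more than doubled. Counts of 21.9, 23.2 and 34.5 in control faced 61.1, 53.9 and 81.8 in treated libraries, with no overlap (log2 fold change 1.28 ± 0.24 SE, limma adjusted p = 5.13e-05). It shares 62 of 7704 exon bases with CYFIP2, which went from 73.9 to 10.7, the opposite direction.

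The ADAM genes that fell were ADAM8, ADAM11, ADAM12, ADAM22 and ADAM28. ADAM8 (CD156a), a proteinase of leukocytes and of several carcinomas, had counts of 281, 299 and 281 in control and 115, 121 and 96.1 in treated libraries. It fell to 38.5% of the control mean (log2 fold change -1.37 ± 0.12 SE, limma adjusted p = 1.08e-10), and no treated library came near the controls. ADAM28, a secreted or membrane-bound enzyme known from lymphocytes and carcinomas, had counts of 62.8, 34.3 and 70.1 against 9.65, 17.5 and 10.7 (-2.04 ± 0.31 SE, limma adjusted p = 2.82e-06). Control replicate 2 was the lowest control and was still above every treated library. ADAM11, a non-catalytic member known from the nervous system, had counts of 41.8, 54.5 and 55.4 against 13.9, 15.2 and 9.49 (-1.91 ± 0.28 SE, limma adjusted p = 2.21e-06), also without overlap. ADAM12 (meltrin alpha) and the non-catalytic ADAM22 fell by 0.26 and 0.50 on the log2 scale (limma adjusted p = 0.00413 and 0.000404).

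Per kb of exon, ADAM9 made up 43.7% of the summed ADAM level in control and 43.9% in treated libraries, ADAM10 went from 11.4% to 13.9%, ADAM17 from 9.47% to 11.1% and ADAM8 from 3.88% to 1.38%. The summed ADAM level per kb was 1547 ± 11.6 in control and 1670 ± 6.59 in treated libraries (SD, n = 3). Both groups were tight, and the lowest treated sum, 1663, was above the highest control sum, 1556. The total of all normalised counts was also higher in treated libraries, at 1.92e+07 to 1.96e+07 against 1.81e+07 to 1.83e+07 in control libraries. None of the sums per kb was rescaled to equal totals. The part of these totals in the higher ADAM sum was not tested.

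**Figure D4:**
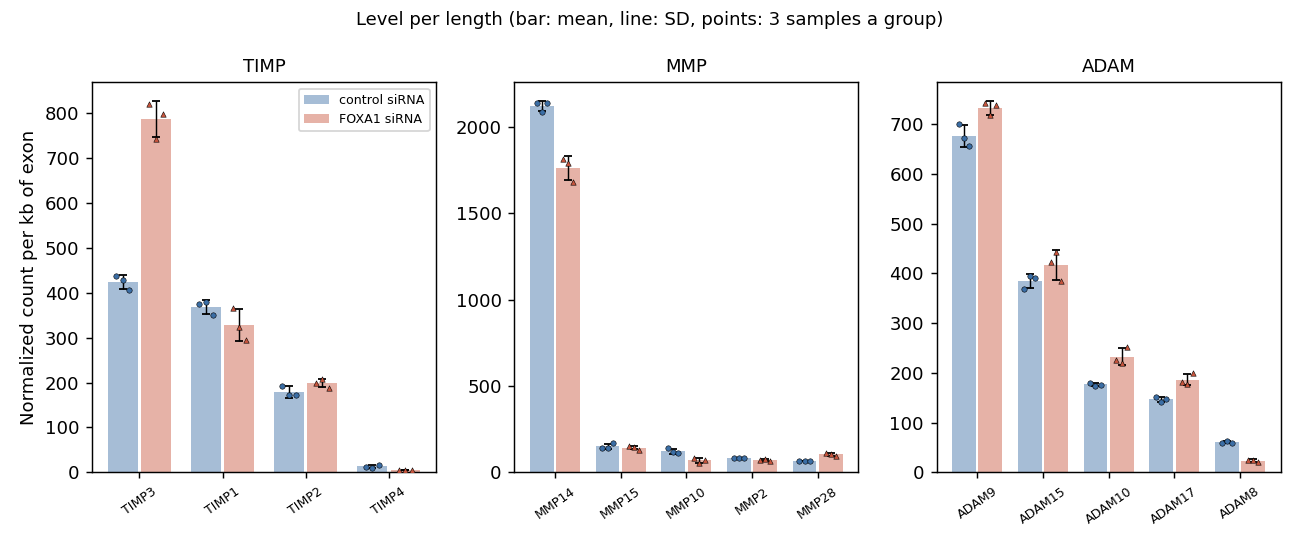
Normalised count per kb of exon (linear axis) of the TIMP genes and of the 5 MMP and 5 ADAM genes with the highest control level per kb, with bars for group means, lines for SD (n = 3) and points for libraries. MMP14 is the highest at 2122 and 1762, and TIMP3 stands at 424 and 787 in control and FOXA1 siRNA libraries.

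Of 5 ADAMTS genes tested, 1 fell and none rose (25.0% and 26.8% of all genes tested did). ADAMTS1, a versican- and aggrecan-cleaving enzyme and the most abundant of the family, had counts of 656, 653 and 645 in control and 655, 659 and 694 in treated libraries. The groups overlapped (log2 fold change 0.04 ± 0.07 SE, limma adjusted p = 0.664). ADAMTS13, the protease that trims von Willebrand factor, had counts of 52.3, 72.6 and 46.0 against 12.9, 12.1 and 16.6. Treated libraries were at 24.3% of the control mean without overlap (-1.95 ± 0.27 SE, limma adjusted p = 8.45e-07), on 171 reads in controls and 42 in treated libraries. ADAMTS6, ADAMTS16 and ADAMTS17 had log2 fold changes of 0.13, -0.17 and 0.07 (limma adjusted p = 0.763, 0.362 and 0.888).

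All 4 TIMP genes were tested, and 2 rose and 1 fell (26.8% and 25.0% of all genes tested did). TIMP3 (chr22:32801701-32863043, plus strand), which stays bound to the matrix and inhibits ADAM17 and ADAMTS enzymes as well as MMPs, had counts of 2011, 1974 and 1871 in control libraries. With FOXA1 siRNA they were 3777, 3416 and 3677, or 186% of the control mean, with a wide gap between groups (log2 fold change 0.89 ± 0.05 SE, limma adjusted p = 4.95e-14). TIMP1, a soluble inhibitor of most secreted MMPs, had counts of 577, 584 and 539 against 563, 500 and 454. Its groups overlapped and it did not pass (-0.17 ± 0.08 SE, limma adjusted p = 0.0815), except under equal totals (0.00851) and without FOXA1 siRNA replicate 1 (0.0177). All its alternatives gave 0.00851 to 0.342.

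TIMP2, which blocks MMPs and also takes part in the activation of pro-MMP2 by MMP14, had means of 1008 ± 70.1 and 1120 ± 54.8 (SD, n = 3), and its groups overlapped. The call was marginal (log2 fold change 0.15 ± 0.06 SE, limma adjusted p = 0.0475) and ended in 12 of 17 alternatives (adjusted p from 0.0151 to 0.487), among them those without FOXA1 siRNA replicates 1 or 2 and without control siRNA replicates 2 or 3 (0.0984 to 0.181). TIMP4, the least abundant inhibitor, had counts of 20.9, 15.1 and 28.2 in control and 9.65, 9.11 and 9.49 in treated libraries (-1.07 ± 0.37 SE, limma adjusted p = 0.0168). Its groups did not overlap, but the call ended without control siRNA replicate 3 (adjusted p = 0.110) and, with all libraries, under quantile normalisation (0.0698), over alternatives from 0.0101 to 0.110. TIMP4 passed the level filter through its control group. It shares 170 of 1650 exon bases with SYN2 on the opposite strand, whose mean also went down, from 9.37 to 5.83.

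Per kb of exon, the summed TIMP level was 984 ± 36.6 in control and 1320 ± 62.3 in treated libraries (SD, n = 3), without overlap. TIMP3 made up 43.1% of it in control and 59.7% in treated libraries, TIMP1 37.4% and 24.8%, TIMP2 18.2% and 15.1%, and TIMP4 1.33% and 0.433%. Thus the order TIMP3, TIMP1, TIMP2, TIMP4 was the same in both groups, with TIMP3 and TIMP1 at 424 ± 15.8 and 368 ± 15.9 per kb in control and 787 ± 40.6 and 328 ± 35.3 in treated libraries (SD, n = 3).

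The upstream stretches of MMP14 and TIMP3 are shown because these were the most abundant MMP and TIMP per kb and moved in opposite directions. That of MMP14 lies on chr14:22836335-22836556 and that of TIMP3 on chr22:32801455-32801700 (both plus strand, RefSeq GRCh38.p14). The TIMP3 stretch was richer in GC (72.0% against 56.3%) and held 25 CpG pairs against 6. Neither held a forkhead or AP-1 word, which says only that these letters are not in the windows. Median GC was 73.7% over the 4 matched members that rose, 65.2% over the 8 that fell, 65.0% over the 7 that did not pass and 58.7% over all windows.
MMP14: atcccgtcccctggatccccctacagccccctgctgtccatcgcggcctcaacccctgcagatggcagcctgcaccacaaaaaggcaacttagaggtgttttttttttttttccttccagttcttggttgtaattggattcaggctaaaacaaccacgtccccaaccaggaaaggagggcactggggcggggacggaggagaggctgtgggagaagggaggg
TIMP3: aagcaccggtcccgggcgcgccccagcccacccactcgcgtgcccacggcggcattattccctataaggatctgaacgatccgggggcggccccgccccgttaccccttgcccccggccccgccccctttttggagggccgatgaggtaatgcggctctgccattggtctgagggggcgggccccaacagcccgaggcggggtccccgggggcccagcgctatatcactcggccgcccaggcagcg

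Calls among the members differed with abundance, as they did among all genes. Of the 13 members with a mean from 10 to 50, 7 fell and 1 rose, against 20.0% and 7.27% of the 3947 genes at that level. Those that fell include MMP1 and TIMP4, with treated means of 2.99 and 9.41, which passed the level filter through their control groups. Between 50 and 300, 5 of 8 members fell and 1 rose, against 29.2% and 18.3% of 5179 genes. Between 300 and 1000, 1 of 5 fell and none rose (26.7% and 33.5% of 5171 genes). From 1000 to 3000, 3 of 4 rose and none fell (43.8% and 23.8% of 3111 genes). Above 3000, 2 of 3 rose and 1 fell (59.3% and 18.0% of 1052 genes). The median log2 fold change of all genes moved the same way with level, from -0.19 in the lowest class to 0.19 in the highest. The part of level in the members' calls was not tested.

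**Figure D5:**
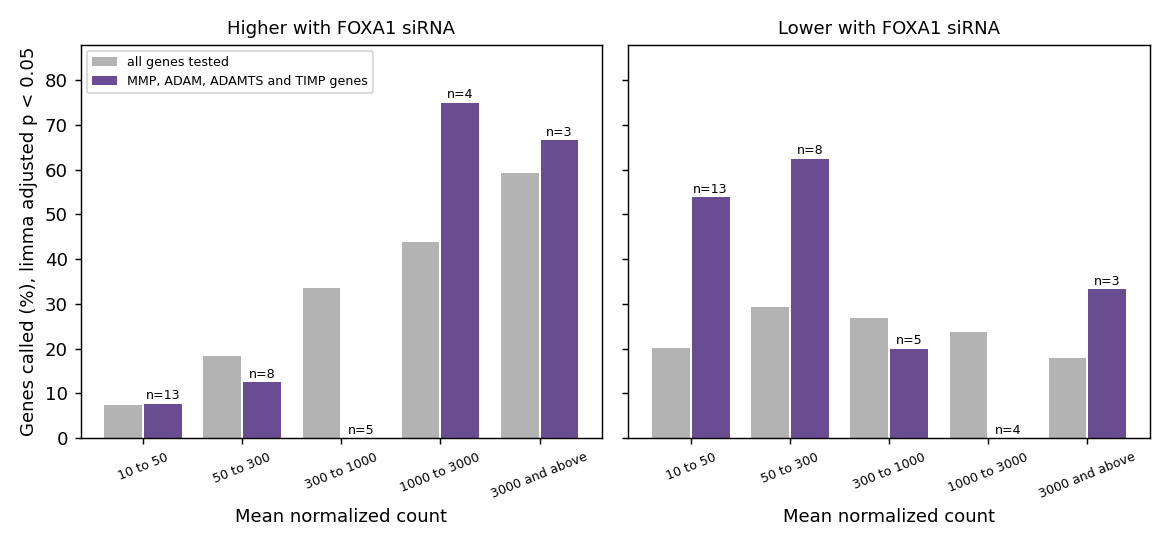
Percentage of genes called higher and lower after FOXA1 siRNA in 5 classes of mean normalised count, for the members and for all genes tested. In the class from 10 to 50 the members' share of lower calls stands above that of all genes (7 of 13 against 20.0%). MMP1 and TIMP4 are among these 7 and passed the level filter through their control groups.

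Members with a mean under 10 were not tested. Those with a mean of at least 3 were MMP9, ADAM20, ADAM21, ADAM23, ADAMTS14 and ADAMTS15. MMP9 (gelatinase B) had counts of 6.66, 3.03 and 7.32 in control and 6.43, 0.759 and 0 in treated libraries, from 17 and 7 reads in all. ADAM23, a non-catalytic member, had counts of 4.76, 4.04 and 6.28 against 1.07, 0.759 and 1.19, from 15 and 3 reads. Counts this low cannot show a moderate difference. Reads at a lower mean were present for MMP3, MMP7, MMP13, ADAM29, ADAM32, ADAM33, ADAMTS2, ADAMTS3, ADAMTS4 and ADAMTS7. Genes with no read were MMP8, MMP20, MMP26, MMP27, ADAM2, ADAM5, ADAM6, ADAM7, ADAM18, ADAM30, ADAMTS5, ADAMTS8, ADAMTS9, ADAMTS10, ADAMTS12, ADAMTS18, ADAMTS19 and ADAMTS20. With 54442387 control and 60130906 treated reads, a count of 0 allows a level of up to 0.0551 and 0.0499 CPM (reads divided by the library total and scaled), for counting error only.

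Genes that act with or on these enzymes were listed in 4 groups of 107 genes, 81 of them tested, of which 36 rose (44.4%) and 25 fell (30.9%), with a median log2 fold change of 0.09. Over all genes tested 26.8% rose and 25.0% fell, and at a mean from 1000 to 3000, where the median of these genes lay (1190), 43.8% and 23.8% did. Among activators and partners, 5 rose and 9 fell of 18 tested (median -0.27). The list's median mean count was 840, and of all genes with a mean from 300 to 1000, 33.5% rose and 26.7% fell. The iRhom RHBDF2, which carries ADAM17 to the surface, the proprotein convertase PCSK6 and the iRhom partner FRMD8 rose by log2 fold changes of 0.55, 0.54 and 0.33. The other iRhom, RHBDF1, named after its values were seen, fell from 428 ± 19.5 to 331 ± 21.9 (SD, n = 3) without overlap (-0.37 ± 0.08 SE, limma adjusted p = 0.000540). The matriptase gene ST14 fell by 1.34, the urokinase gene PLAU by 0.94 and the tissue plasminogen activator gene PLAT by 0.89 on the log2 scale. PLAU had counts of 7074, 6716 and 6757 in control and 3580, 3685 and 3482 in treated libraries, so that its groups lay far apart. Of the 6 TspanC8 tetraspanins, which escort ADAM10 and were grouped after the values were seen, 4 fell and 1 rose. Their median mean count was 757, in the same class from 300 to 1000, where 26.7% of all genes fell and 33.5% rose. TSPAN14 fell by 0.56 on the log2 scale, and TSPAN5 was at 0.19 with a call that ended in 12 of 17 alternatives (limma adjusted p = 0.0415, range 0.0338 to 0.329), including every fit that left out a library other than FOXA1 siRNA replicate 1 (0.0769 to 0.105).

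Among the 8 tested other inhibitors and related proteins, 1 rose and 4 fell (median log2 fold change -0.41). The list's median mean count was 111, and of all genes with a mean from 50 to 300, 18.3% rose and 29.2% fell. SERPINE2, an inhibitor of urokinase and thrombin, rose by 0.83, while PAPLN and the cystatin gene CST3 fell by 0.84 and 0.46. SPOCK2 and ADAMTSL5 fell by 0.48 and 0.35 with calls that ended in some fits that left out a library (limma adjusted p = 0.103 to 0.124 for SPOCK2 without FOXA1 siRNA replicate 2 or control siRNA replicate 3, and 0.0578 to 0.0904 for ADAMTSL5 without replicate 2 or 3 of either group; over all alternatives 0.00772 to 0.124 and 0.00605 to 0.161).

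Of 35 tested membrane proteins known to be shed by ADAM10 or ADAM17, 19 rose (54.3%) and 6 fell (17.1%), with a median log2 fold change of 0.15. The list's median mean count was 1491, and of all genes with a mean from 1000 to 3000, 43.8% rose and 23.8% fell. EPGN and NRG1, ligands of ERBB receptors, rose by 1.19 and 0.59, the interleukin 6 receptor gene IL6R by 0.74 and the desmosomal cadherin gene DSG2 by 0.55. EPGN had counts of 204, 183 and 172 in control and 416, 423 and 433 in treated libraries, a gap far wider than the spread within either group. LRP1, a scavenger receptor that clears MMPs and their complexes, fell by 1.27, ALCAM by 0.57, the syndecan SDC1 by 0.44 and APLP2 by 0.27.

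Of 20 tested matrix proteins that metalloproteinases cut, 11 rose (55.0%) and 6 fell (30.0%), with a median log2 fold change of 0.23. The list's median mean count was 3072, and 59.3% of all genes with a mean of at least 3000 rose and 18.0% fell. Tenascin C (TNC) rose by 1.02, the collagen IV genes COL4A1 and COL4A2 by 0.95 and 0.69 and the laminin gene LAMC1 by 0.92. Collagen VII (COL7A1) fell by 0.80, COL1A1 by 0.52, the perlecan gene HSPG2 by 0.41 and BCAN by 0.38. HSPG2 lost its call without FOXA1 siRNA replicate 3 (limma adjusted p = 0.104 against 0.00529, the highest over its alternatives, which started at 1.51e-13). The fibroblast markers' summed level, given above, includes COL1A1 (means of 151 and 107), the only 1 of those 8 markers with a mean of at least 10. That sum is therefore no measure separate from COL1A1, and the part of fibroblasts in the COL1A1 change was not tested.

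In the authors' deposited table, which lists their own comparison of the same libraries, 6 members were higher and 12 lower at an adjusted p under 0.05, of 38 with a value, where 19.4% and 17.6% of 21657 genes were, 37.0% in all. All 18 had the same direction and call in limma. The 3 members called by limma alone were TIMP2, MMP12 and TIMP4, with adjusted p of 0.106, 0.165 and 0.0691 in the authors' deposited table.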

How the data were processed

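Per the labels' protocols, total RNA of 6 samples of OSC19SSZR cells was extracted with the Reliaprep system, and libraries were made with a NEBNext Ultra kit. HISAT2, DESeq2, GRCh38 and GRCm38 are named in the submitters' processing notes without versions or roles, and the read counter and its strand setting are not given in the sources used here. The deposited expression signal is read counts divided by a size factor per library, as the values show: 100% of values were whole multiples of a step within 0.01 reads in all 6 libraries. The authors' deposited comparison table gives a log2 fold change, a test score, a p-value and an adjusted p per gene. Of 61862 lines, 3 malformed lines were left out, and 61756 IDs matched a gene name (GENCODE release 29, GRCh38).

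The log2(normalised count + 1) values of 18460 genes with a mean of at least 10 were tested with limma 3.58.1 (trend and robust empirical Bayes, R 4.3.3), with Benjamini-Hochberg adjustment over all of them. A fold change is on this log2 scale, which understates changes of low genes. The limma script was tested on simulated data. edgeR 4.0.16 and DESeq2 1.42.0 were run on the recovered reads as alternatives, beside other pseudocounts, filters, scalings, a replicate block and fits without each library. Size factors ran from 0.843 to 1.32.

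The members and lists were chosen with earlier results of these data known. Every member with a mean of at least 10 could be named. Values in every library are given for MMP14, ADAM17, TIMP1, the most abundant member of each family, members past the threshold with a change of at least 1.5-fold, and members with a mean from 3 to 10 that the text singles out. From each partner list up to 4 genes that rose and 4 that fell are named, by size of change at a mean of at least 50. Values per kb use the merged exon length. ADAM10, PLAU and EPGN were added to those shown in every library, and the TspanC8 group and the cluster's neighbours were formed, after their values were seen.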

Additional observations from a re-analysis of the deposited data

How the results depend on the processing

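Of the 33 tested members, 25 kept their call (5 higher, 12 lower, 8 not past) under every alternative that tested them, 17 in all or 16 for members with a mean under 50. The same count over all genes tested is not given here, so whether members kept their calls more often than other genes cannot be told. Members called higher and lower numbered 5 and 15 with edgeR's quasi-likelihood test on recovered reads, beside 4738 and 4800 of all genes. DESeq2 gave 5 and 13 (all genes 4343 and 4150), and quantile normalisation 5 and 12 (4976 and 4458). With no filter they were 6 and 13 (all genes 4824 and 4791), and at a threshold of 0.01 5 and 12 (3940 and 3558). With a mean of at least 50, which leaves fewer genes tested, 6 members were higher and 8 lower (all genes 4736 and 3893). Leaving out each library in turn gave 5 to 8 higher and 12 to 14 lower (all genes 4485 to 4746 and 4038 to 4434). Quantile normalisation reversed ADAM9 (log2 fold change -0.048), and the cause was not tested. A fit with the replicate number as a block gave 5 higher and 13 lower (all genes 4837 and 4495). Whether the replicate numbers pair the samples is not known. Deviations of same-numbered libraries correlated at only 0.0177, 0.0224 and 0.0121, although every library correlated best with its own number, a hint from the data. With 3 libraries a group, correlations this small cannot decide it. FOXA1 stayed between -2.91 and -2.72 under all alternatives. Depth limits members under a mean of 10, where a call of a moderate change cannot be made.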
